A study of Populus tremula x Populus alba with 20 samples.

Results

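Among the genes that met the conditions below, the 100 described here varied least in their share of the counts. The libraries came from apical buds of hybrid poplar, over all genotypes and both harvests. The 100 genes were taken from 31823 counted genes by their CPM, the count of a gene divided by the total of its library and multiplied by 1000000. A gene was a candidate if its mean over all 20 libraries lay between 20 and 200 CPM and if the range of the 8 overexpressor libraries overlapped that of the 2 wild-type (WT) libraries at each harvest. The window on the mean left 10449 genes, the overlap after short days 9046 and the overlap after chilling 6699. The 100 of these 6699 candidates with the smallest coefficient of variation (CV, the SD over the mean of the 20 libraries) are the members. Every library entered this choice, so the levels, CVs and differences below describe the members and test nothing.

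The buds came from Populus tremula x Populus alba, INRA clone 717 1B4. WT was compared with 4 lines that overexpress TEMPRANILLO-like proteins: TEML1_1ox and TEML1_2ox carry the TEML1ox construct, and TEML2_1ox and TEML2_2ox the TEML2ox construct. Plants of all genotypes spent 8 weeks in short days and were harvested then (SD8), or after 2 more weeks of short days at 4 °C (CH2). Each line and WT gave 2 replicates per harvest, which the labels call biological and describe as a pool of 3 buds in one place and of 2 plants in another. Before the short days the potted plants grew in long days for 6 weeks by one label and 4 by another. The promoter of the transgenes is not given in the sources used here. Library totals ran from 35779227 to 39352645 counts. The TEML2_2ox libraries at SD8 stood apart: both lay above the other 8 SD8 libraries at 19.7% of the 10449 genes of the window and below them at 10.5%. For the other 3 overexpressor lines at SD8 these 2 shares summed to 2.47 to 8.31%.

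Genes of steady expression serve as reference genes: the transcript of interest is measured relative to them, usually against several at once. Many genes in that use encode parts of the cytoskeleton, the translation machinery or protein turnover, which every living cell needs. In buds of trees the choice is difficult, since bud set, dormancy and chilling change metabolism, water content and growth at the same time. A steady value in sequencing data is steady relative to the sum of all transcripts and says nothing of the amount of RNA per cell. In such bulk samples a change in the mix of cells and a change within cells cannot be told apart. The files do not pair the identifiers with names, so the members are given by identifier, the lists of reference genes and of bud marker genes could not be applied, and the labelled tissue was not checked against markers.

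The members' CVs ran from 2.98 to 5.27%, with a median of 4.74%, and 67 of them were below 5%. The other 6599 candidates had a median CV of 19.0% and a lower quartile of 11.6%. Between the lowest and the highest of the 20 libraries the members differed by 1.12- to 1.29-fold, and 60 of the 100 stayed under 1.2-fold. By contrast, 38.8% of the 10449 genes in the window differed at least 2-fold between their lowest and highest library. Counting error alone would give the members CVs of 1.19 to 3.60%, with a median of 2.18%. It made up a median of 21.1% of their variance, against 1.62% for the other candidates. Genes with more counts have less counting error, and 73 of the 100 members had a mean above the median of the candidates.

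**Figure D1:**
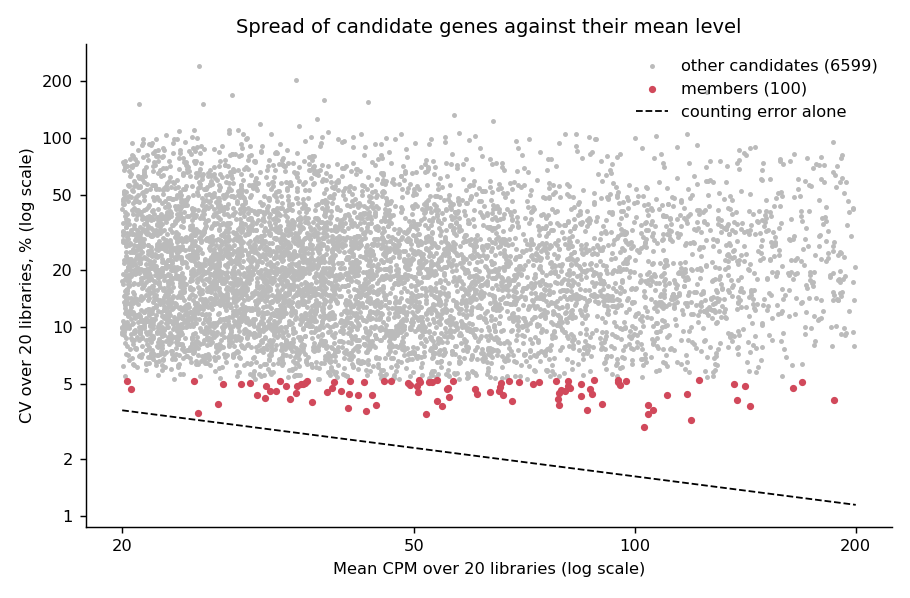
CV over the 20 libraries (%, log scale) against mean CPM (log scale) for the 100 members (red) and the other 6599 candidates (grey), with the CV that counting error alone would give (dashed). The members form the lower edge of the cloud, between 2.98 and 5.27%, above the line of counting error.

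PtXaAlbH.03G125900.v5.1 had the smallest CV of all candidates, 2.98%, at a mean of 103 ± 3.06 CPM (SD, n = 20). At SD8 it stood at 110.1 and 100.6 CPM in WT, 100.2 and 102.1 in TEML1_1ox, 106 and 100.1 in TEML1_2ox, 101.4 and 101.8 in TEML2_1ox, and 103 in both TEML2_2ox libraries. At CH2 it stood at 107 and 101.1 CPM in WT, 106 and 107 in TEML1_1ox, 101.4 in both TEML1_2ox libraries, 105 and 98.9 in TEML2_1ox, and 98.3 and 105 in TEML2_2ox. The highest and the lowest of the 20 values were thus a WT library before chilling and a TEML2_2ox library after it, and the WT replicates at SD8 alone spanned most of that range. Over all lines together, neither the harvests nor the overexpressors and WT were separated. Within TEML1_1ox both CH2 libraries lay above both SD8 libraries, while in WT and the other lines the harvests overlapped.

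PtXaAlbH.05G088200.v5.1 followed with a mean of 119 ± 3.86 CPM (SD, n = 20) and the smallest ratio of highest to lowest library among the members, 1.12. WT was at 123 and 119 CPM at SD8 and at 121 and 127 at CH2. The 4 TEML1ox libraries were at 115 ± 1.03 CPM at SD8 and 119.5 ± 5.16 after chilling. Those of TEML2ox were at 119.6 ± 3.91 and then 119.4 ± 0.403 (SD, n = 4 each). The harvests overlapped in WT and, with the lines pooled, in both constructs. Within TEML1_2ox they did not, at 115 and 116 CPM at SD8 and 125 and 123 at CH2. TEML1_1ox was at 115 and 114 CPM and then 115 and 116, so the SD of 5.16 is largely a gap between these lines. In both TEML2ox lines the harvests overlapped.

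PtXaAlbH.01G286000.v5.1 had a mean of 51.8 ± 1.80 CPM, and its libraries ran from 48.8 through a median of 51.5 to 56.04. PtXaAlbH.17G115000.v5.1 had a mean of 104 ± 3.63 CPM and ran from 98.2 through 104 to 111. PtXaAlbH.14G052500.v5.1 had a mean of 25.4 ± 0.889 CPM and ran from 23.5 through 25.3 to 26.8 (SD, n = 20 each). For this last gene, with 964 counts in the mean library, counting error made up 84.6% of the variance, so its CV of 3.50% is close to the 3.22% that this depth can resolve. For PtXaAlbH.05G088200.v5.1 and PtXaAlbH.17G115000.v5.1 the share was 21.1% and 20.9%.

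**Figure D2:**
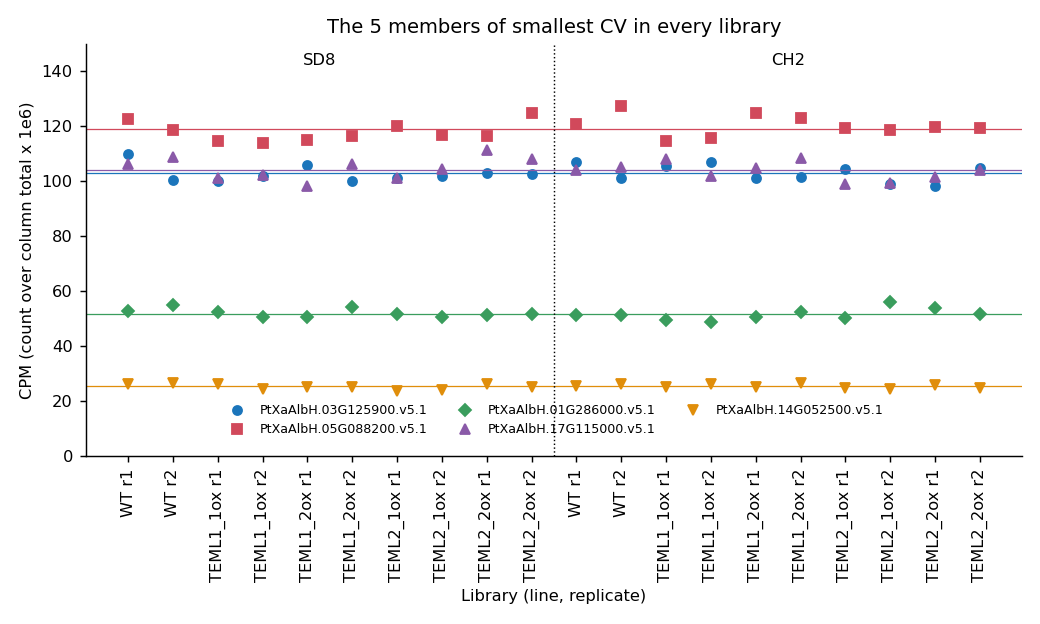
CPM of the 5 members with the smallest CV in each of the 20 libraries, SD8 left and CH2 right of the dotted line, with r1 and r2 for the replicates and a horizontal line at each gene's mean. Each gene stays within 1.15-fold from its lowest to its highest library, from a mean of 25.4 CPM for PtXaAlbH.14G052500.v5.1 to 119 CPM for PtXaAlbH.05G088200.v5.1.

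The members covered most of the window, from PtXaAlbH.06G096100.v5.1 at a mean of 20.3 ± 1.05 CPM to PtXaAlbH.10G179500.v5.1 at 187 ± 7.64 (SD, n = 20 each). These levels are not corrected for transcript length and do not rank the genes by transcript number. PtXaAlbH.18G055700.v5.1 had the widest range, from 83.1 CPM in TEML1_2ox replicate 1 to 107 CPM in TEML2_2ox replicate 1, both at SD8. Its CV was 7.08% among the 10 SD8 libraries and 2.11% among the 10 CH2 libraries, so its spread lay before chilling. At the edge of the choice, PtXaAlbH.07G068200.v5.1 and PtXaAlbH.01G325100.v5.1 were the last genes kept, with CVs of 5.27% each. PtXaAlbH.12G030200.v5.1 and PtXaAlbH.14G087300.v5.1 were the first left out, each at 5.29%. There is no gap in CV at this edge.

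Most of the members' small sum of squares lay between lines and replicates, which hold all but 1 of the 19 degrees of freedom. The sum of squares of log2(CPM + 1) was divided into harvest (1 of 19 degrees of freedom), line within harvest (8) and replicate (10). Harvest held a median of 8.41% in the members and 79.8% in the other candidates. It held over 50% in 4 of the 100 members and in 73.9% of the other candidates. Lines within a harvest held a median of 47.0% in the members and replicates 36.9%, against 12.5% and 6.57% in the other candidates. A small CV over both harvests leaves little room for a harvest difference, so this contrast in shares follows from the choice. Within harvests the members' median CV was 4.72% at SD8 and 3.78% at CH2, and 30 of the 100 were steadier at SD8 than at CH2. The other candidates also spread more at SD8, with median CVs of 8.66% against 6.97%. Without both TEML2_2ox libraries at SD8 the members' median CV over the remaining libraries was 4.59%.

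**Figure D3:**
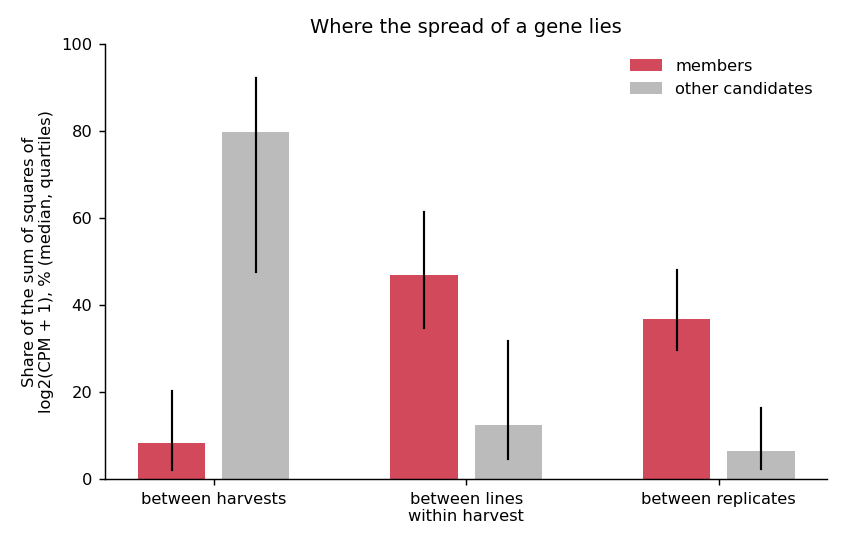
Median share (%) of each gene's sum of squares of log2(CPM + 1) that lies between harvests, between lines within a harvest and between replicates, for the 100 members (red) and the other 6599 candidates (grey), with black lines from the lower to the upper quartile. Harvest holds 8.41% in the members and 79.8% in the other candidates.

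Over the 20 libraries the 4950 pairs of members had a median correlation of 0.09 and a median absolute correlation of 0.20 (Pearson's r of log2(CPM + 1), where all genes share the library totals). Among the other candidates the median absolute correlation was 0.70. The rule kept genes with little difference between the harvests, where most of the other candidates' spread lay, so this contrast follows from the choice. Together the members took 0.660 ± 0.00957% of all counts before chilling and 0.662 ± 0.00797% after it (SD over 10 libraries each). WT replicate 1 at SD8 was the highest library for 23 members and TEML1_1ox replicate 2 at CH2 the lowest for 13. In these libraries the members' median deviation from their own means was 0.04 and -0.04 on the log2 scale, the widest of the 20, and the other 18 lay within these bounds. The replicates of a line differed by a median of 0.04 to 0.07 on the log2 scale over the members.

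Overexpressors and WT did not separate at any member, as the rule required. In the window the ranges did not overlap at 13.4% of genes at SD8 and at 25.5% at CH2. In edgeR's quasi-likelihood test with TMM scaling, a scaling that assumes most genes do not change, 0 members passed an adjusted p of 0.05 in any of the 4 comparisons of a construct with WT. Those at an unadjusted p under 0.05 numbered 0 for TEML1ox and 1 for TEML2ox at SD8, and 0 and 3 at CH2, and DESeq2 and limma-voom also called 0 members. Over all genes tested 0% were called by this edgeR fit at SD8 in either direction, and limma-voom called 0. DESeq2 called 46 higher and 25 lower in TEML1ox at SD8, and 127 and 82 in TEML2ox. With each line as a group of its own edgeR called 35 higher and 38 lower, and 609 and 535. At CH2 2.32% were higher and 1.42% lower in TEML1ox, and 3.45% higher and 2.81% lower in TEML2ox. These shares rest on both WT libraries: the calls fell from 595 higher and 364 lower in TEML1ox to 4 and 7 when WT replicate 1 at CH2 was left out, and 14 and 16 were called when it was WT replicate 2. For TEML2ox they fell from 886 and 723 to 9 and 15 in the first case and 26 and 28 in the other. The lone WT library is there assumed to vary like the other groups. The count of members stayed at 0 in each of these fits. The members' log2 fold changes against WT ran from -0.13 to 0.16 for TEML1ox and from -0.18 to 0.14 for TEML2ox at SD8. At CH2 they ran from -0.11 to 0.13 and from -0.13 to 0.17. Scaled by the totals the edgeR test again called 0 members against WT, with 1 for TEML1ox and 2 for TEML2ox at an unadjusted p under 0.05 at SD8, and 1 and 3 at CH2. It called 0% of all genes at SD8, and at CH2 1.83% higher and 1.5% lower in TEML1ox and 2.79% higher and 2.73% lower in TEML2ox. As the rule kept genes of small CV whose ranges overlapped with WT, the members' counts against WT follow from the choice. Both comparisons of a harvest share the WT libraries. Both TEML2_2ox libraries at SD8 lay above the other 8 for 6 members and below them for 2, where the window gave 19.7% and 10.5%. The choice by small CV used these same SD8 values, so this contrast is no test of the members. At CH2 both lay outside the other 8, above or below, for 2% of members and 6.61% of the window. For TEML1_1ox, TEML1_2ox and TEML2_1ox the members' share outside was slightly above that of the window at both harvests. It was highest for TEML1_1ox at CH2, at 16% against 13.8%, and was 9% against 8.31% for TEML2_1ox at SD8. Among 100 members such gaps amount to a few genes at most, and they were not tested. The rule barred WT from lying outside at any member, so the choice also shaped these shares.

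Whether the members were stable through chilling depended on how the libraries were scaled. On CPM of the totals, which the rule used, 54 members had a higher mean at CH2 and 46 a lower one. Their log2 ratios of CH2 to SD8 ran from -0.10 to 0.11 with a median of 0.00. None had all 10 CH2 libraries above or all below the 10 SD8 libraries, against 24.9% above and 31.2% below in the window. On the same scale the 25677 genes with at least 10 counts in 10 or more libraries had a median log2 ratio of -0.32. TMM moved that median to -0.03 and the members' median to 0.29, and RLE scaling gave -0.04 and 0.29. With either of these scalings all 100 members had a higher mean at CH2. With TMM 91 members had all 10 CH2 libraries above all 10 SD8 libraries, where the window gave 42.2%.

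**Figure D4:**
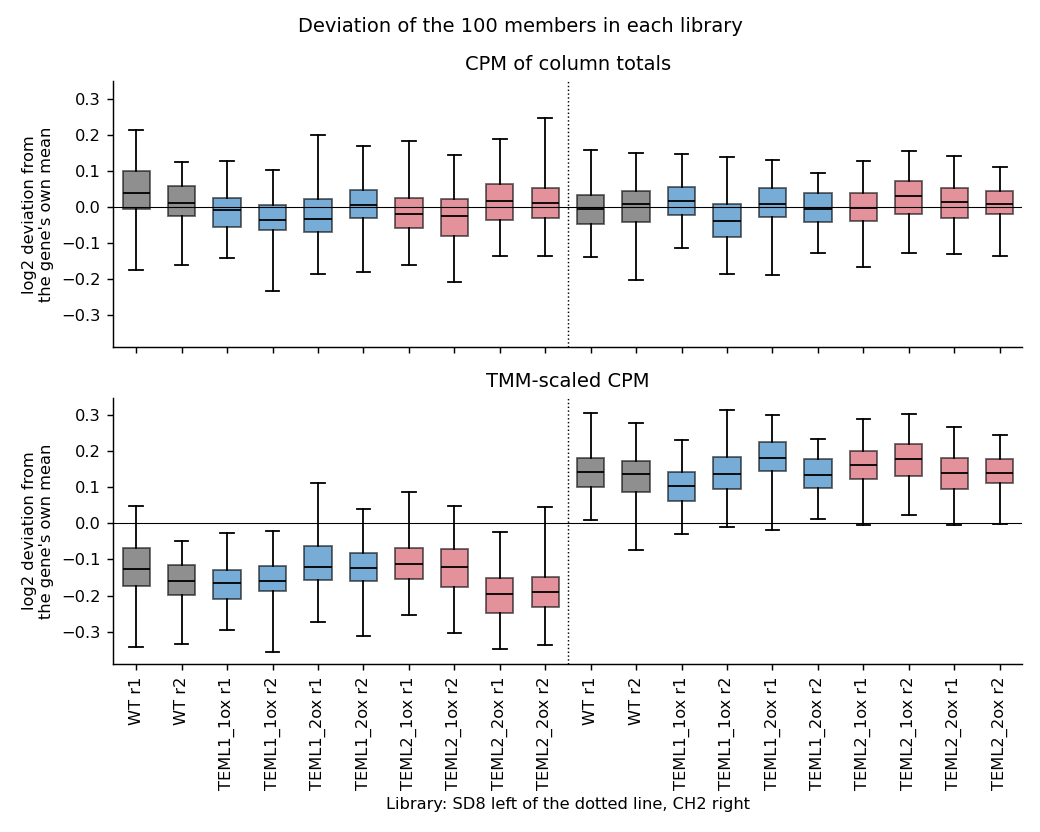
Log2 deviation of the 100 members from their own means in each library, on CPM of column totals (top) and on TMM-scaled CPM (bottom), for WT (grey), TEML1ox (blue) and TEML2ox (red). Boxes give the quartiles and median and whiskers the full range. The medians stay between -0.04 and 0.04 on the totals, and lie between -0.20 and -0.11 at SD8 and between 0.10 and 0.18 at CH2 with TMM.

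The same held in the test. With TMM the edgeR quasi-likelihood test (adjusted p under 0.05) called 84 members higher at CH2 in WT, 100 in TEML1ox and 100 in TEML2ox, and 0 lower. Over all 27337 genes 29.7% were called higher in WT, 34.8% in TEML1ox and 35.5% in TEML2ox, and 31.7%, 37.1% and 39.1% lower. Scaled by the totals, the test called 2 members in WT, both lower, 6 in TEML1ox (3 higher) and 8 in TEML2ox (4 higher). Over all genes 18.7%, 23.8% and 23.5% were then called higher and 43.9%, 48.6% and 51.4% lower. As the rule chose genes without a difference on the totals, the members' counts on that scale follow from the choice, and those with TMM follow from the choice and the shift between the scales. The harvests also came as separate tables, so a difference in their preparation or processing cannot be told apart from chilling.

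PtXaAlbH.10G047600.v5.1 showed the size of the shift. In WT it stood at 125 and 134 CPM at SD8 and at 143 and 144 at CH2, which do not overlap. Its fitted log2 fold change in WT was 0.45 ± 0.07 (SE) with TMM, the highest of the members, and 0.14 ± 0.07 on the totals. With the lines of a construct pooled the harvests overlapped, at 140.3 ± 6.96 and 143.5 ± 1.68 CPM in TEML1ox and 141 ± 8.79 and 145 ± 6.51 in TEML2ox (SD, n = 4 each). By line they overlapped only in TEML1_2ox. CH2 lay above SD8 in TEML1_1ox (143 and 136, then 144 and 145 CPM) and in TEML2_1ox (132 and 134, then 139 and 154). In TEML2_2ox CH2 lay below SD8, at 148 and 149 CPM and then 143 in both libraries. PtXaAlbH.06G128100.v5.1 was the opposite case, at 97.8 and 95.6 CPM in WT at SD8 and 83.5 and 85.6 at CH2. Its log2 fold change in WT was -0.19 ± 0.06 on the totals and 0.11 ± 0.07 with TMM, the lowest of the members. The difference between its values is the shift common to all genes, and its value with TMM lies within 2 SE of 0.

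Averaged over both constructs the extremes were other genes. PtXaAlbH.06G071000.v5.1 had the highest average log2 fold change with TMM, at 0.39 ± 0.05 (SE) in each construct, against 0.12 ± 0.05 in TEML1ox and 0.10 ± 0.05 in TEML2ox on the totals. It stood at 129.9 ± 4.64 CPM at SD8 and 141 ± 4.70 at CH2 in TEML1ox (SD, n = 4 each). PtXaAlbH.06G162300.v5.1 had the lowest average with TMM, at 0.17 ± 0.06 in TEML1ox and 0.20 ± 0.06 in TEML2ox, against -0.10 ± 0.05 and -0.09 ± 0.05 on the totals. Within a single construct the members ran from 0.13 to 0.39 in TEML1ox and from 0.16 to 0.43 in TEML2ox with TMM, so neither gene was the extreme in either construct. The direct test of whether the change between harvests differed between a construct and WT, with TMM, called 0 members for either construct, with 0 and 4 at an unadjusted p under 0.05. For TEML1ox it called 2 of all 27337 genes and for TEML2ox 56.

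**Figure D5:**
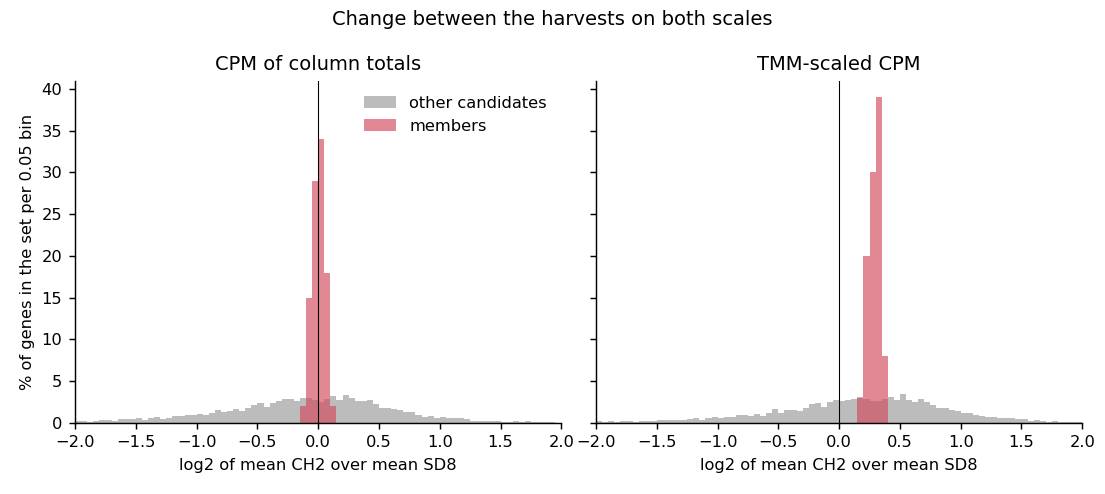
Log2 ratio of the mean at CH2 to the mean at SD8 for the 100 members (red) and the other 6599 candidates (grey), as the percentage of each set per bin of 0.05, on CPM of totals (left) and on TMM-scaled CPM (right). The members move as a block from a median of 0.00 to 0.29, inside the broad spread of the other candidates, of which 314 (left) and 284 (right) lie beyond the axis.

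The rule applied to TMM-scaled CPM chose 100 genes of which 0 were members. That set was as tight on its own scale, with a median CV of 4.84% and a highest of 5.42%, and had a median log2 ratio of CH2 to SD8 of -0.29 on CPM of totals. The SD of the log2 ratio over the 20 libraries had a median of 0.090 over pairs of members and 0.095 over pairs of the genes chosen with TMM, but 0.172 between a member and a gene of the other set. These SDs come from the libraries that chose both sets and follow from the small CVs of each on its own scale and the shift between the scales. Which set was constant per cell cannot be told apart with these libraries, for which the labels describe no spiked-in RNA. The 100 genes with the most counts in a library took 12.9 to 18.04% of the counts at SD8 and 16.9 to 20.1% at CH2. The number of genes with at least 10 counts ran from 25834 to 26393 at SD8 and from 24689 to 25137 at CH2. The part of these differences in the shift was not tested.

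The tightest pair of members was PtXaAlbH.15G092400.v5.1 and PtXaAlbH.06G012300.v5.1, whose log2 ratio had an SD of 0.043 over the 20 libraries. The loosest was PtXaAlbH.03G000500.v5.1 and PtXaAlbH.11G119500.v5.1, at 0.142. These pairs were picked after their values were seen. Averaged over the other 99 members, the SD of a member's log2 ratio ran from 0.076 to 0.103.

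A choice made on some libraries can be read in the others. With the rule applied to the 10 replicate 1 libraries, the 100 genes chosen had a median CV of 5.55% there and 6.14% in the 10 replicate 2 libraries that had no part in it. The remaining candidates of that choice had a median of 19.6% in the replicate 2 libraries. With the replicates exchanged the medians were 4.62% where chosen and 6.25% in the others, against 20.2% for the remaining candidates. The median CVs were thus wider outside the libraries that chose the genes, and below those of the remaining candidates. Only 31 and 43 of the genes of these choices were members, so the values describe these choices and not the 100 members. Single genes were less steady: the highest CVs in the other libraries were 10.6% and 16.7%, where the lower quartiles of the remaining candidates were 11.8% and 12.7%. Of the 100 genes of each choice, 57 and 27 stayed under the highest CV at which that choice had been made. Replicates of a line share the harvest, so these libraries are not a separate experiment. The single WT library per harvest had to lie within the overexpressor range in these choices, which left 1957 and 3296 candidates.

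Stability within a harvest was another property. The 100 genes chosen on the SD8 libraries alone had a median CV of 3.06% there and 5.29% among the CH2 libraries, where the remaining candidates had 7.59%. From SD8 to CH2, however, their means differed by a median of 0.31 on the log2 scale in either direction, and from -1.39 to 1.16 at the extremes. Genes chosen on CH2 alone had medians of 2.55% at CH2 and 6.25% at SD8 (8.56% for the remaining candidates), and a median absolute log2 difference of 0.33. Only 14 and 12 of these genes were members, and 0 members were in both sets.

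Single members depended on single libraries more than the set did. The set kept 68 to 96 of its 100 genes with 1 library left out, and 64 without both TEML2_2ox libraries at SD8. In every one of the 20 such choices with 1 library left out, 21 members were chosen again. Of these, 7 were also chosen from the replicate 1 and from the replicate 2 libraries alone: PtXaAlbH.03G000200.v5.1, PtXaAlbH.06G012300.v5.1, PtXaAlbH.10G206300.v5.1, PtXaAlbH.02G165000.v5.1, PtXaAlbH.06G103100.v5.1, PtXaAlbH.18G048600.v5.1 and PtXaAlbH.18G055700.v5.1. Their CVs ran from 3.64 to 5.10% and their means from 30.5 to 94.7 CPM. PtXaAlbH.03G125900.v5.1, the first by CV over all libraries, was not among them. It was chosen in 18 of the 20 choices with 1 library left out, and not from the replicate 1 libraries. WT replicate 1 at SD8, at 110.1 CPM, lay above the 4 overexpressor libraries of replicate 1 at SD8, of which the highest was at 106 CPM. Where a WT library was left out, the single WT library of that harvest likewise had to lie within the overexpressor range. These 7 were singled out after their values were seen.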

How the data were processed

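A TruSeq kit for stranded mRNA sequencing served for the 20 bud libraries, per the labels' protocols. Per the file headers the values are read counts; the authors deposited them unscaled for 31823 genes, in a table for each harvest, and every column was used. Per the submitters' processing notes HISAT2 was used. The counting program, genome build, strand setting and filters are not given in the sources that were used, so reads of near-identical or overlapping genes may be split or lost. The column taken as WT replicate 1 at SD8 has 1 more digit in its header than the label.

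CPM, the selection and the sums of squares (with 1 CPM added before the log2) were computed in Python 3.11.15 with pandas 2.3.3. Counting error was taken as the Poisson variance of each count. Ranges that touch counted as overlapping. Counts were tested over all genes with edgeR 4.0.16 in R 4.3.3 (filterByExpr, TMM, quasi-likelihood F test, Benjamini-Hochberg adjustment, threshold 0.05). Chilling came from 1 fit of 20 libraries in 6 groups, constructs against WT from the 10 libraries of a harvest, and the SE is the absolute log2 fold change over the square root of F. Lines of a construct were pooled, so p-values treat both libraries of a line as independent. The selection and the tests were tried on simulated data. DESeq2 1.42.0 and limma-voom (limma 3.58.1) were alternatives, with other scalings, filters, windows, spread measures and left-out libraries.

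The members and lists were chosen with earlier results of these data known. The named genes are the 5 of smallest CV, the 2 on each side of the last rank, those of highest and lowest mean CPM, of highest and lowest chilling log2 fold change in WT and over the constructs, and of widest range. Others are said to be chosen after their values were seen. Lists by gene name could not be applied, as no names were used here. No sequences were used. Counting intervals cover counting error only.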

Additional observations from a re-analysis of the deposited data

Results flagged for a closer look

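Among the named genes, and the members' median deviation and summed share, 72 groups of 4 libraries were examined for a library far from the other 3, and 3 were found. Chance flags about 1 in 20 such groups. PtXaAlbH.06G071000.v5.1 at SD8 was at 146 CPM in TEML2_2ox replicate 2, against 127 to 129 CPM in the other 3 TEML2ox libraries. At CH2 the same gene was at 136 CPM in TEML2_1ox replicate 1, against 143.6 to 144 CPM in the others. PtXaAlbH.18G055700.v5.1 at CH2 was at 90.9 CPM in TEML1_1ox replicate 2, against 95.6 to 96.0 CPM in the other TEML1ox libraries. That library was also the lowest of the 20 for 13 of the 100 members.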

How the results depend on the processing

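Of the 100 members, 0 were chosen on TMM-scaled CPM and 0 with DESeq2 size factors. With a mean window of 40 to 100 CPM 58 were chosen again. A narrower window keeps every member whose mean lies in it, so this count reflects mean levels and not steadiness. By the median absolute deviation 51 were chosen again, and without both TEML2_2ox libraries at SD8 64. From the replicate 1, replicate 2, SD8 or CH2 libraries alone 31, 43, 14 and 12 were chosen. Other windows and spread measures, and no overlap condition, kept 71 to 95, and leaving out 1 library kept 68 to 96. The members' median log2 ratio of CH2 to SD8 was 0.29 on TMM-scaled CPM and 0.29 with DESeq2 size factors, and their median CV 11.4% on both. The members called between the harvests in WT, TEML1ox and TEML2ox numbered 2, 6 and 8 with libraries scaled by their totals, and 3, 7 and 8 scaled by the members themselves, a circular choice. Under the other alternatives they numbered 67 to 94, 94 to 100 and 92 to 100, all higher at CH2, and with 1 library left out 67 to 92, 96 to 100 and 99 to 100. The count against WT was 0 under every alternative that kept both WT libraries, in both constructs and harvests. This follows from the choice of genes with small CVs that overlap with WT. With the replicate number as a block 81, 100 and 100 members were called between the harvests and 0 against WT. Deviations of same-numbered libraries correlated at -0.14 to 0.18 over 45 pairs of groups, above 0.1 in 2. Such correlations cannot show whether same-numbered libraries were grown or prepared together. The mean CPM of the 16 named genes moved by less than their SD over libraries in all 368 alternative values. For each gene 20 of these values leave out 1 of the 20 libraries, which can move a mean only by little. This result therefore says little of how steady the genes are. Depth limits the members of lowest count, whose counting CV reaches 3.60%.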

Other observations

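The identifiers carry a 2-digit field, from 1 to 19 in these tables. The members were spread over all 19 values, in unequal numbers. Field 6 held 15 of the 100 members and 7.76% of the candidates, and field 3 held 9 members and 5.79% of the candidates. Fields 12 and 18 held 6 members each, with 3.27% and 4.03% of the candidates. The fields given here were picked after their values were seen. Field 8 held 2 members and 6.05% of the candidates, and fields 13, 16 and 17 held 1 member each. Pairs of members within 5 rows of each other in the tables numbered 2. PtXaAlbH.03G000200.v5.1 and PtXaAlbH.03G000500.v5.1 are neighbours in the table, with means of 86.1 and 169 CPM and a correlation of 0.16 over the 20 libraries. PtXaAlbH.18G054400.v5.1 and PtXaAlbH.18G054600.v5.1 are 2 rows apart, with means of 138 and 97.3 CPM and a correlation of 0.25. These points share library totals, and no test was made.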
